A study of Homo sapiens with 4 samples.

Results

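The genes described here are the MYC family transcription factors MYC, MYCN and MYCL, the D cyclins CCND1 and CCND3, the E cyclin CCNE1, the cyclin D-dependent kinases CDK4 and CDK6, and the kinase inhibitors CDKN1B (p27) and CDKN1C (p57). They were chosen by gene symbol, and the platform annotation assigned them 16 of the 47323 probes, 10 genes of 20046. The remaining CIP/KIP inhibitor gene, CDKN1A, was left out of this choice. Total RNA of the established human embryonic stem cell line H9 (WA09) was hybridised to Illumina bead arrays from 4 passage groups, labelled P1 for passage numbers in the 40s, P2 for those in the 100s, P3 for those in the 200s and P4 for those in the 300s. All groups are the same line with no treatment named in the labels, and each group is 1 array, so every difference below compares single arrays, has no replicate check and carries no p-value. The 4 arrays detected between 11328 and 11432 genes each, a gene being detected where its probe reached 38.4 intensity units, the 60th percentile of all values. After quantile normalization this shared limit passed 18930 probes on every array, so near-equal gene counts follow from the method.

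In the G1 phase, mitogen and growth signals raise D cyclins, which bind CDK4 or CDK6 and phosphorylate the retinoblastoma protein. This frees E2F transcription factors, which induce cyclin E, and cyclin E with CDK2 drives entry into S phase. Proteins of the CIP/KIP family bind and restrain cyclin-kinase complexes, and MYC family proteins, paired with MAX on E-box DNA, raise genes of growth and the cell cycle. Human embryonic stem cells have a short G1 phase, and MYCN and MYC are both known to be active in them.

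The pluripotent identity given in the labels was met on all 4 arrays: the 13 measured genes of the pluripotency marker list were detected on each one. POU5F1 read 4110, 4379, 5446 and 5467 from P1 to P4, and SOX2 read 5475, 5210, 4935 and 5132. Not all of the list was steady. TERF1, a telomere-binding protein gene, was 2.41-fold lower and LEFTY1, a nodal inhibitor gene, 3.83-fold higher in P2 than in P1. LEFTY1 read 173.5, 664.1, 388.1 and 608.4 and TERF1 6156, 2550.5, 4149.5 and 3817 from P1 to P4. GDF3 read 124.9, 88.1, 199.1 and 210.8, and was 2.39-fold higher in P4 than in P2. Of the lineage markers, 6 of 11 neural, 8 of 10 mesoderm, 5 of 9 endoderm and 8 of 9 trophoblast genes were under the detection limit on every array, among them PAX6, SOX1, TBXT and SOX17. Those detected on all arrays included NES, TUBB3 and DCX of the neural list, KDR of the mesoderm list and AFP of the endoderm list. AFP read 61, 211.5, 111.7 and 86.1 from P1 to P4, and the endoderm regulator FOXA2 passed the limit in P3 alone, at 92.6.

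The upstream sequences of a pair of members are shown because each carries letters that the factors of this circuit are known to bind. Of the 10 genes, 7 were matched to RefSeq promoters (GRCh38.p14), and the 250 bases before the annotated start were searched on both strands. The motifs were the E-box bound by MYC and MAX, CACGTG, which reads the same on both strands, and the E2F motifs TTTGGCGC and TTTCGCGC. The CDK4 sequence below (chr12:57752311-57752560, minus strand) has its E-box matches in capitals, and the MYCN sequence (chr2:15940300-15940549, plus strand) has its E2F matches in capitals, which overlap.
CDK4: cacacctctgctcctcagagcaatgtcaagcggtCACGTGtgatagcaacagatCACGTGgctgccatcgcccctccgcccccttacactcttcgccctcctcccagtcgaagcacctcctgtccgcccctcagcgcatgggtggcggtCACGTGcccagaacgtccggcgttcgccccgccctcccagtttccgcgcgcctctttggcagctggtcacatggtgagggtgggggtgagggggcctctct
MYCN: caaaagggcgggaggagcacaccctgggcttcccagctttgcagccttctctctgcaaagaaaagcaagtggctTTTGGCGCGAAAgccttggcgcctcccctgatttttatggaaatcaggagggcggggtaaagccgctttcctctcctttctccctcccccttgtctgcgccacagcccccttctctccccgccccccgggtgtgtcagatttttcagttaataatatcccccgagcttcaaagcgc
The CDK4 window held 3 E-boxes, starting 216, 196 and 101 bases before the start. At least 1 E-box was present in 6.34% of 35116 promoter windows of this length and 3 or more in 0.0797%. The MYCN window held an overlapping pair of E2F matches, starting 176 and 172 bases before the start, where 0.968% of all windows had a match. The windows searched for MYCL, CCND3, CCNE1, CDK6 and CDKN1B held neither motif. A match is a description of the letters, and the arrays measured no binding.

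Most of the detected members spanned less than 1.5-fold over the arrays on their brighter probes, as did most genes. Of the 10, 9 were detected on all 4 arrays and MYCL on none. Only CDKN1C, in the comparisons with P2, differed by at least 2-fold between any pair of arrays when each gene was read from its brighter probe; the dimmer MYC probe also passed, in P3 against P1. Between 2.1% (P4 against P3) and 4.37% (P2 against P1) of all detected genes differed that much. CCND3 came closest, 1.88-fold higher in P3 and 1.85-fold higher in P4 than in P1. For 5 of the 9, MYCN, CCND1, CCNE1, CDK4 and CDKN1B, the highest array was within 1.35-fold of the lowest on the brighter probe. The dimmer probe spanned 1.49-fold for MYCN and 1.42-fold for CDKN1B. The median range over the 10646 genes detected on every array was 1.34-fold.

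**Figure D1:**
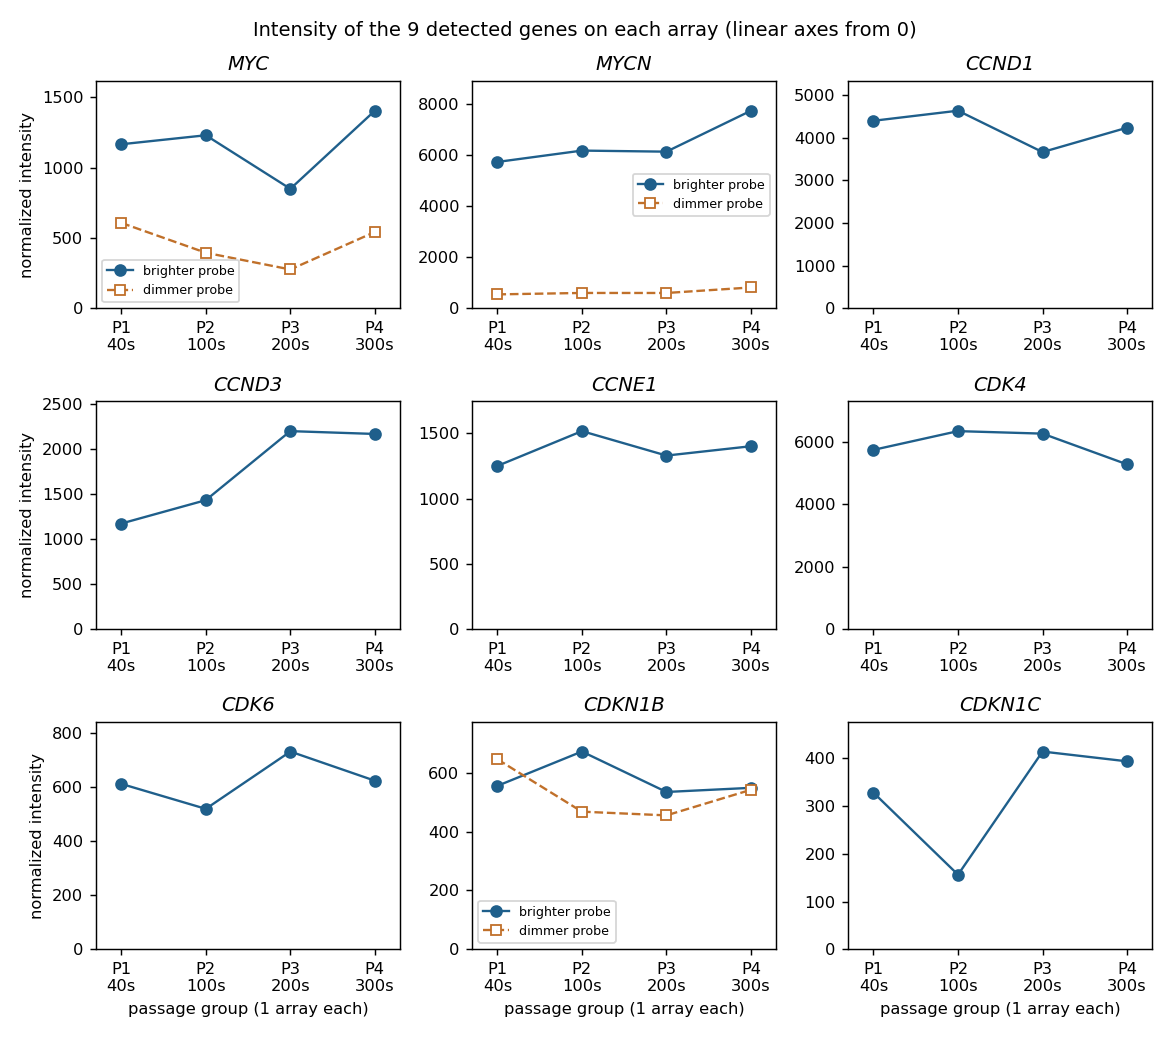
Normalized linear intensity (vertical axes from 0) of the 9 detected genes on the single array of each passage group (horizontal axes), with filled circles for the brighter probe and open squares for a dimmer probe detected on all 4 arrays. CDKN1C is lowest in P2 at 156, CCND3 is higher in P3 and P4 than in P1 and P2, and both MYC probes are lowest in P3.

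Among the MYC family, MYC encodes the widely expressed member of these growth-promoting transcription factors and was read by 2 probes. Its brighter probe read 1166, 1230, 849.6 and 1404 from P1 to P4. Its dimmer probe read 607.7, 395.6, 276.8 and 543 from P1 to P4. Both probes were lowest in P3 and both were higher in P4 than in P3, by 1.65-fold on the brighter and 1.96-fold on the dimmer probe. They parted in the comparisons with P1. In P2 the log2 difference from P1 was 0.08 on the brighter and -0.62 on the dimmer probe. In P3 it was -0.46 and -1.13, the latter 2.20-fold lower, and in P4 it was 0.27 and -0.16. A gap between probes as large as that of MYC in P3 against P1 was seen in 5.6% of the 2570 genes with a pair of probes detected on all arrays. The order of P1 and P4 for MYC therefore depended on the probe, whereas the low value in P3 did not.

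MYCN encodes the family member prominent in embryonic and neural cells. Its brighter probe read 5745, 6190, 6148 and 7754 from P1 to P4. Its dimmer probe read 551.1, 607.2, 606 and 823 in the same order. P4 was highest and P1 lowest on both probes, and P2 and P3 were nearly equal, 1.01-fold apart on the brighter probe and closer still on the dimmer. P4 was 1.35-fold above P1 on the brighter and 1.49-fold above P1 on the dimmer probe, and 1.26-fold and 1.36-fold above P3. For MYCN the probes lay 0.146 log2 units apart in P4 against P1, and 62% of genes with a probe pair had a gap at least as large. Of all genes detected on the 4 arrays, 48.2% spanned at least as wide a range as its brighter probe.

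MYCL, the member first found amplified in lung cancer, was under the limit on all 4 arrays with each of its 3 probes. Its brightest probe read 31.7, 21, 38.1 and 37.1 from P1 to P4, so P3 and P4 were just short of the limit of 38.4. Its other probes read at most 28.3. No fold is given for it.

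**Figure D2:**
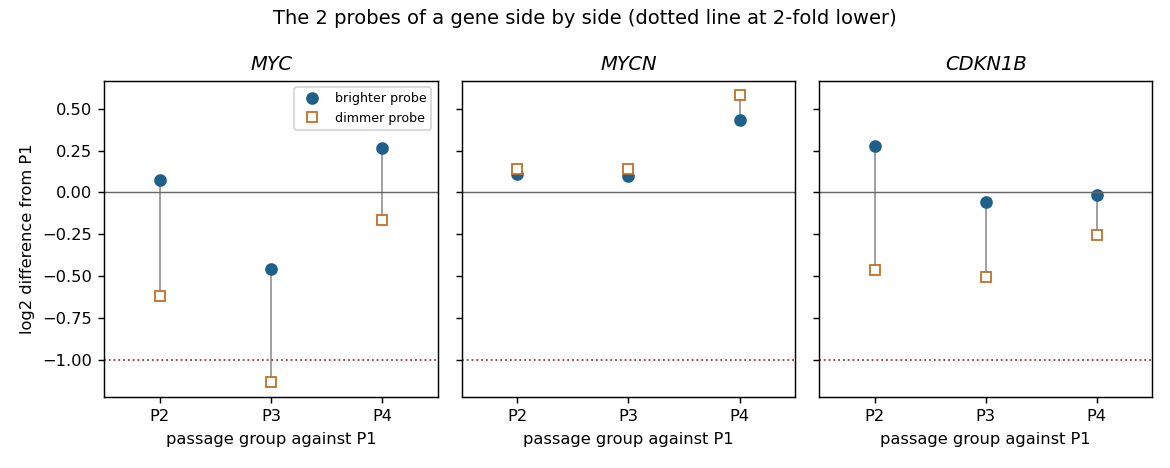
Log2 difference from P1 (vertical axis) in P2, P3 and P4 (horizontal axes) for the 3 genes with a pair of probes detected on all 4 arrays, with circles for the brighter and squares for the dimmer probe and a grey line joining them. The MYCN probes lie close together, those of MYC and CDKN1B are apart, and the dimmer MYC probe passes the 2-fold line in P3 at -1.13.

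Among the D cyclins, which bind and activate CDK4 and CDK6, CCND1 and CCND3 had different patterns over the arrays. CCND1 read 4392, 4628, 3659 and 4230.1 from P1 to P4. Its lowest array was P3 and its highest P2, 1.26-fold apart. CCND3 read 1170.1, 1430, 2197 and 2165 from P1 to P4. The 2 later arrays were close, 1.02-fold apart, and both stood above the earlier ones, by 1.54-fold for P3 and 1.51-fold for P4 against P2. On the brighter probes CCND3 had the widest range of the detected genes after CDKN1C, while the dimmer MYC probe spanned 2.20-fold, and 11.4% of all genes detected on 4 arrays spanned at least 1.88-fold. CCND1 and CCND3 each had 1 probe, so neither could be set against another probe of the same gene.

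CCND3 lies on chromosome 6, and the 20 nearest detected genes there were at a median of 0.05 log2 units from P1 in P3 and -0.01 in P4. The gene's own differences were 0.91 and 0.89. The 10 fibroblast markers, of which 5 were detected on all arrays, summed to 6387, 6899, 8325 and 10034.8 intensity units from P1 to P4. The 11 neural markers, of which 3 were detected on all arrays, summed to 4713, 5902, 6920 and 7073. Both sums were higher in P3 and P4, as was CCND3, and their part in its level was not tested. The sums describe the listed genes and do not measure how many fibroblast or neural cells were present. The largest part of the fibroblast sum on each array was THY1, which read 3664, 4058, 5030 and 5796 from P1 to P4. COL1A2 and COL1A1 were also higher in P4 than in P1, the latter 2.03-fold. The neural sum was carried by TUBB3 and NES, the latter at 2036, 2495, 2905 and 3243. PDGFRB, S100A4 and DCX, also detected on all arrays, each read below P1 in P2 or P3. They read 246, 250.7, 117.6 and 311.7 (PDGFRB), 866.5, 690.8, 948.9 and 1231.3 (S100A4), and 231.9, 134.9, 264.3 and 196.6 (DCX). The fibroblast markers COL3A1, DCN, LUM, POSTN and FAP and the neural markers PAX6 and SOX1 were under the limit on every array. In such bulk RNA, a changed number of cells of a type and a changed amount of RNA per cell cannot be told apart.

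CCNE1 encodes cyclin E1, the partner of CDK2 at the G1 to S transition. Its brighter probe read 1250.4, 1517, 1329.8 and 1402 from P1 to P4. P2 was highest and P1 lowest, 1.21-fold apart. The dimmer CCNE1 probe passed the limit only in P3, at 46.4, and read 34.6, 33.5 and 29.4 in P1, P2 and P4.

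CDK4 and CDK6 encode the catalytic partners of the D cyclins. CDK4 read 5747, 6349.6, 6269 and 5282 from P1 to P4. Its highest array, P2, was 1.202-fold above its lowest, P4, the narrowest range of the 9 detected genes on their brighter probes. CDK6 read 612.5, 520, 732.2 and 624.2 from P1 to P4, with P3 1.41-fold above P2 and P1 and P4 within 1.02-fold of each other. A range as wide as that of CDK6 was reached by 39.9% of the genes detected on all arrays.

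The CIP/KIP inhibitors did not share a pattern over the arrays. CDKN1B encodes p27, which binds cyclin E-CDK2 and accumulates in resting cells. Its brighter probe read 555.4, 672, 534.6 and 548.7 from P1 to P4, and its dimmer probe 645.7, 467.7, 455.1 and 542.1. The probes disagreed in direction for P2 against P1, with log2 differences of 0.28 and -0.47, a gap of 0.74 that 6.7% of genes with a probe pair reached. No direction of CDKN1B in P2 can therefore be given from these probes. Both probes placed P3 lowest, within 1.04-fold of P1 on the brighter and 1.42-fold below P1 on the dimmer probe.

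CDKN1C encodes p57, an imprinted inhibitor expressed from the maternal copy that restrains G1 kinases in the embryo. It read 328.2, 156.3, 414.4 and 393.9 from P1 to P4. P2 stood apart below the other arrays, while P3 and P4 were 1.05-fold from each other. CDKN1C was 2.10-fold lower in P2 than in P1, 2.65-fold higher in P3 than in P2 and 2.52-fold higher in P4 than in P2. Against P1, CDKN1C was higher by 0.34 log2 units in P3 and by 0.26 in P4. A range of 2.65-fold or more was reached by 2.4% of the genes detected on all arrays. The 20 nearest detected genes on chromosome 11 had a median log2 difference of 0.06 in P2 against P1, where CDKN1C had -1.07. It was read by 1 probe. P2 was also the highest array for AFP and LEFTY1 and the lowest for TERF1 and GDF3, with the values given above. Their part in the CDKN1C level was not tested. When 50 units were added to every value instead of a floor, the log2 difference in P2 against P1 was -0.87, short of 2-fold, while P3 and P4 stayed over 2-fold above P2. The remaining CIP/KIP gene, CDKN1A (p21), a target of p53, was left out of the members, so no member count includes it. Its brighter probe read 1562, 488.6, 89.9 and 2546 from P1 to P4, and its other probe was under the limit on every array. On the brighter probe it was 17.4-fold lower in P3 than in P1 and 28.3-fold higher in P4 than in P3. That range was wider than that of any detected member. The lowest array was P3 for CDKN1A and P2 for CDKN1C.

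The genes whose pattern over the 4 arrays lay closest to that of CDKN1C were WLS, which carries Wnt ligands to the cell surface, ROR2, a receptor for Wnt ligands, and TMT1A, a methyltransferase gene. The measure was the root mean square distance between log2 values centred on each gene's mean, over 4 arrays and 10633 genes. It was 0.035 for WLS, 0.049 for ROR2 and 0.056 for TMT1A, and 63 genes lay within 0.2. WLS read 140.9, 65.2, 167.1 and 160.5 from P1 to P4. ROR2 read 162.8, 71, 200.3 and 193.1 in the same order. TMT1A read 94.6, 41, 109.2 and 104.8, with P2 just above the limit. A match over 4 single values is a description of these arrays.

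**Figure D3:**
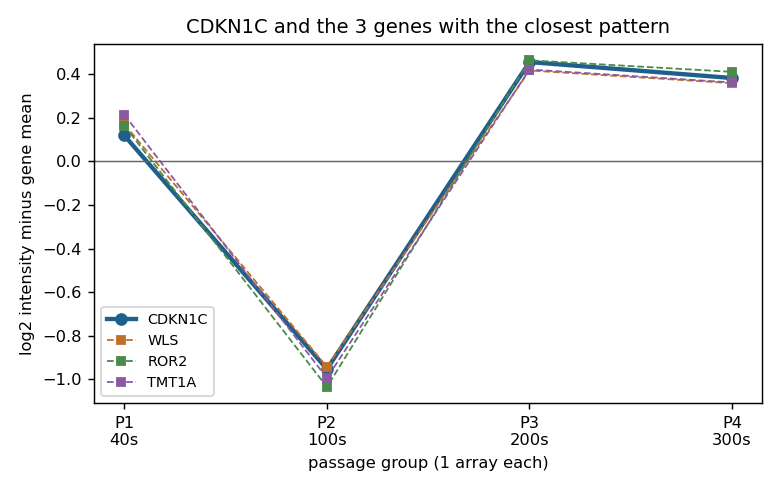
Log2 intensity minus each gene's own mean (vertical axis) on the array of each passage group (horizontal axis) for CDKN1C (thick line) and the 3 genes with the smallest distance to it, WLS, ROR2 and TMT1A. All 4 genes are lowest in P2 and have P3 and P4 close together above P1.

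Counted over the comparisons, CDKN1C was the 1 of 9 detected members at least 2-fold different in P2 against P1, where it was lower, and 4.37% of all detected genes differed by that much. No member differed by 2-fold in P3 against P1 (background 3.55%) or in P4 against P1 (background 3.05%). In P3 against P2 and in P4 against P2 it was again CDKN1C, now higher, beside 3.15% and 3.13% of all genes. In P4 against P3, the background was 2.1% and no member was 2-fold different. Against these shares, 0 or 1 of 9 is not a result about the members as a group. At 1.5-fold, 1 member passed in P2 against P1 (CDKN1C, background 15.8%), 1 in P3 against P1 (CCND3, 13.6%) and 1 in P4 against P1 (CCND3, 12.3%). Both CCND3 and CDKN1C passed in P3 against P2 (11.9%) and in P4 against P2 (11.8%), and MYC passed in P4 against P3 (7.8%). Comparisons against the same array share it and are not independent of each other.

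Set against P1, the 9 members had a median log2 difference of 0.11, 0.10 and 0.17 in P2, P3 and P4. Over all detected genes it was 0.03, 0.02 and 0.03, and 52.9%, 52.2% and 53.6% of them were above P1. The counts of sign among the members depend on the probe. On the brighter probes 7 of 9 were above P1 in P2 and 2, CDK6 and CDKN1C, below, whereas on the dimmer probes of MYC, MYCN and CDKN1B, with the other genes as before, 5 were above and 4 below. In P4, 6 were above and 3 below on the brighter probes, and 5 above and 4 below with the dimmer ones. In P3 both readings gave 6 above and 3 below, the latter being MYC, CCND1 and CDKN1B. Outside the range from the 5th to the 95th percentile of all genes lay CDKN1C in P2 and CCND3 in P3 and P4.

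**Figure D4:**
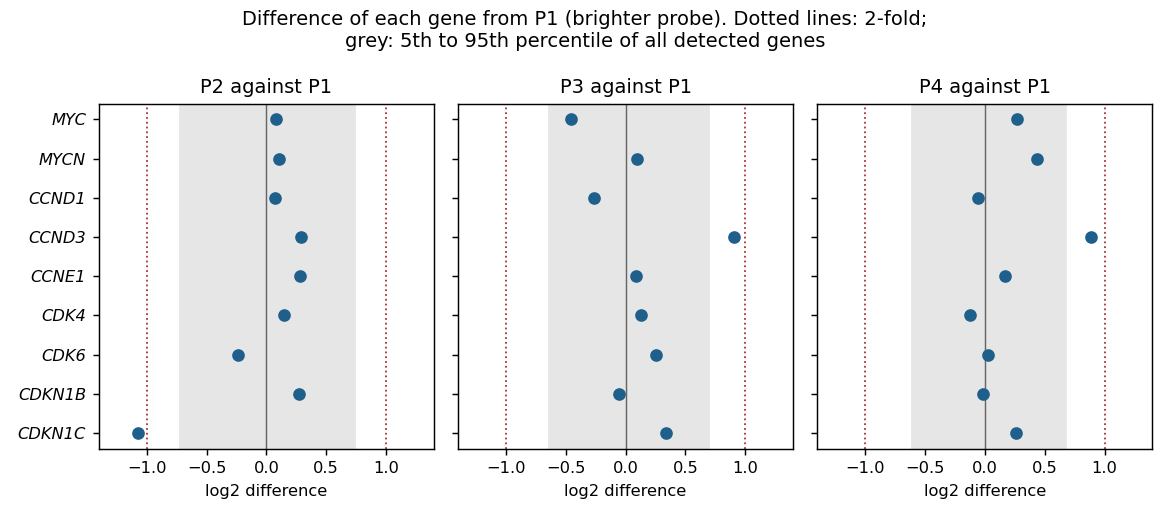
Log2 difference from P1 (horizontal axes) of the 9 detected genes (rows, brighter probe) in P2, P3 and P4, with the 5th to 95th percentile of all detected genes in grey and dotted lines at 2-fold. CDKN1C in P2 at -1.07 and CCND3 in P3 and P4 at 0.91 and 0.89 lie outside the grey range, and the other points lie within it.

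Most detected genes of the list of other G1 regulators also spanned less than 1.5-fold over the arrays. Of 22 detected genes of that list, CDKN2D alone passed 2-fold against P1, in P3. CDKN2D, which encodes the INK4 inhibitor p19, was under the limit in P1 at 28 and read 75.3, 91.8 and 38.8 on the later arrays. It was at least 2.39-fold higher in P3 and at least 1.96-fold higher in P2 than in P1, so 2-fold in P2 could not be decided. The INK4 genes CDKN2A and CDKN2B, which encode inhibitors of CDK4 and CDK6, were under the limit on every array. The third D cyclin gene, CCND2, read 5985, 7068, 6232 and 7617 from P1 to P4. CDK2, the kinase partner of cyclin E, read 1282, 1577, 1606 and 1492, lowest in P1.

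TFDP1, which encodes the dimerization partner of E2F factors, read 1685, 2662, 1855 and 1914 from P1 to P4, 1.58-fold higher in P2 than P1. E2F1 read 130.2, 88, 84.1 and 92.1, highest in P1. CCNH, the cyclin of the kinase that activates other cyclin-dependent kinases, read 686.2, 418.7, 554.9 and 409.9, 1.67-fold lower in P4 than P1. The median of the list against P1 was 0.18, 0.09 and 0.05 in P2, P3 and P4.

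Among the genes that E2F factors induce, 26 of 28 detected were above P1 in P2, with a median log2 difference of 0.23, while 52.9% of all detected genes were above P1. None reached 2-fold, and 2, UHRF1 and POLE, reached 1.5-fold. UHRF1, which guides DNA methylation to new strands, read 1901, 3726, 2751 and 2250.5 from P1 to P4. POLE, a replicative DNA polymerase subunit, read 189.9, 305.2, 220.9 and 234.5, and the helicase subunit gene MCM2 1643, 2197, 1648 and 1384. Each of the 3 was highest in P2. The 2 below P1 in P2 were E2F1, with a log2 difference of -0.57, and PCNA, the sliding clamp gene of replication, with -0.45. In P3 the list's median against P1 was 0.03, with 16 of 28 above, beside 52.2% of all detected genes. In P4 it was -0.05, with 13 of 28 above, beside 53.6% of all detected genes. The list includes CCNE1, which was also highest in P2. No test of the list was made.

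The MYC target list, genes of ribosome building, translation and nucleotide synthesis, had medians of 0.07, -0.11 and -0.09 in P2, P3 and P4 against P1, over 33 detected genes. In P3, 25 of 33 were below P1, while 52.2% of all detected genes were above it. In P4, 20 of 33 were below P1, while 53.6% of all detected genes were above it. None of the 33 was 2-fold different in these comparisons. MYC was lowest in P3 on both probes, whereas MYCN was above P1 in P3 and in P4 on both probes. The part of either gene in these counts was not tested. NPM1, a nucleolar chaperone gene, read 97.1, 53.1, 70.9 and 72.4 from P1 to P4, and the translation factor gene EIF4E 261.1, 143.4, 218.3 and 199. Both were lowest in P2, where the low NPM1 signal came nearest the limit of 38.4. TERT, the telomerase catalytic subunit gene, read 49.9, 73.3, 43.6 and 53.7, near the limit. ODC1, the polyamine synthesis enzyme gene, was lower in the later groups and read 2474, 2163, 1804 and 1711; it was picked out after its values were seen.

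Among MYC network partners, which pair with MAX or MLX or bind MYC, the median against P1 was 0.27, 0.25 and 0.24 in P2, P3 and P4. Of the list's detected genes, 11 of 16, 11 of 15 and 12 of 16 were above P1. Over all detected genes, 52.9%, 52.2% and 53.6% were above P1. The list includes repressors that compete for MAX, and no test of it was made. MLXIPL, a glucose-sensing factor that pairs with MLX, read 67.7, 135.3, 189.4 and 175.5 from P1 to P4, 2.80-fold and 2.59-fold higher in P3 and P4. MXI1 and MXD3, repressors that compete for MAX, went opposite ways: MXI1 read 95.4, 47.8, 66.9 and 57.6, highest in P1, and MXD3 47, 83.8, 78.2 and 59.5, lowest in P1. MAX itself read 81.3, 77.2, 106.4 and 99.6. MXI1, MXD3 and MAX were under 3 times the limit on every array.

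Among growth signal genes upstream of the D cyclins, 20 were detected, with medians against P1 of 0.08, 0.00 and 0.06 in P2, P3 and P4. The receptor gene EGFR read 116.1, 48.1, 64.6 and 67.2 from P1 to P4, 2.41-fold lower in P2 than P1. Its P2 value was near the limit of 38.4. ERBB2, a receptor of the same family, read 4134, 4538, 2211 and 2205 from P1 to P4. Its later arrays stood below its earlier ones, 2.05-fold in P3 against P2, whereas those of CCND3 stood above. PIK3R1, a regulatory subunit of PI3 kinase, read 178.6, 107.6, 277.4 and 230.1, lowest in P2 and 2.58-fold higher in P3 than in P2. Among the ubiquitin ligase genes that turn over cyclins, inhibitors and MYC, none of 12 detected was 2-fold different between any arrays. DTL read 815.8, 615.7, 546.1 and 501.7, highest in P1, and FBXW7, a MYC and cyclin E receptor of the ligase, 642.9, 437.5, 503.7 and 545.1. The scaffold gene CUL4A read 1138, 1640.5, 1389 and 1617.

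**Figure D5:**
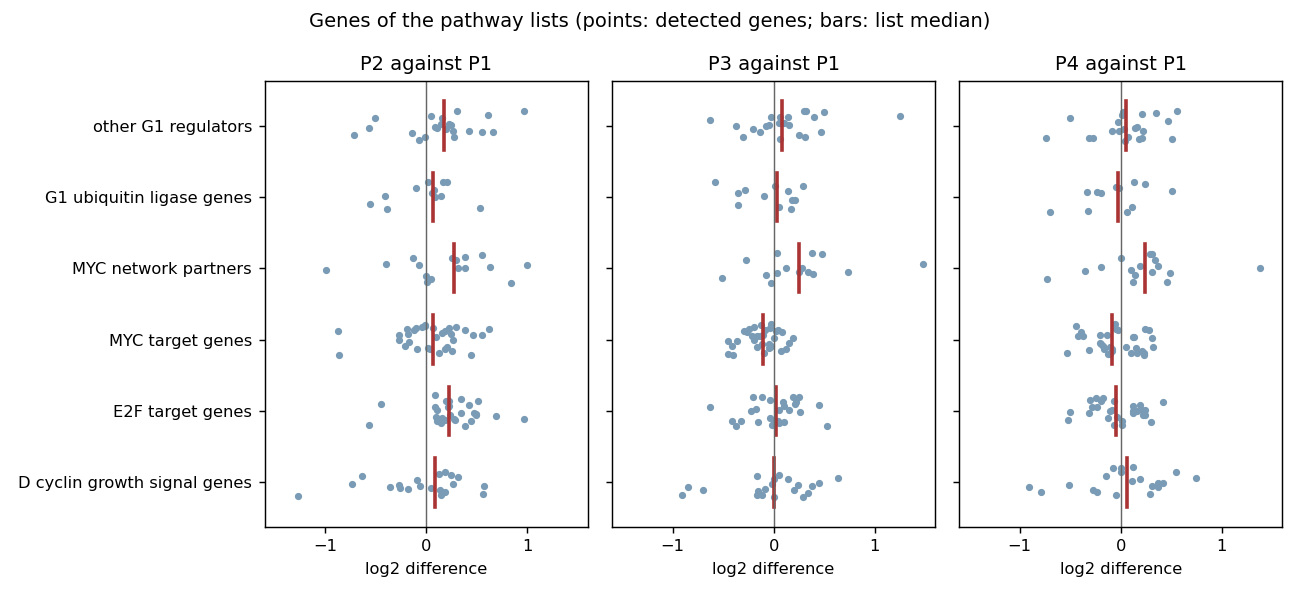
Log2 difference from P1 (horizontal axes) of the detected genes (points) of the 6 pathway lists (rows) in P2, P3 and P4, with a red bar at each list's median. Most E2F target genes lie right of 0 in P2, with a median of 0.23, and the medians of that list lie near 0 in P3 and P4.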

How the data were processed

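Linear probe intensity values were deposited by the authors for 4 arrays of biotin-labelled cRNA, per the labels. Between 25.2% and 25.4% of values on each array were below 0. The software, background subtraction and normalization behind them are not given in the sources used here. Precision is limited by the number of arrays. The 47323 probes were quantile normalized over the 4 arrays, held at a floor of 38.4 (60th percentile) and log2 transformed (Python 3.11.15, numpy 2.4.6, pandas 2.3.3). A gene was read from its probe with the highest mean. Of the probes, 30113 had 1 symbol, 8 several and 17202 were not listed. For 30074 of those with 1 symbol, the symbol was taken from the RefSeq genes by Entrez identifier, whether or not it changed. Calls were counted at 2-fold and 1.5-fold over genes detected on at least 1 of the arrays compared, with no test. The calculation was tested on simulated data. All members were named, with the 3 genes of widest range per list, the 3 closest patterns for members past 2-fold, and CDKN1A; marker genes, CCND2, CDK2, CDKN2A, CDKN2B, E2F1, MAX and ODC1 were added outside that rule. Members and lists were chosen with earlier results of these data known. Alternatives covered normalization, floor, offset, probe choice and filter.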

Additional observations from a re-analysis of the deposited data

How the results depend on the processing

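No paired analysis was possible because each group has 1 array. Values as deposited, median centring, the floor at the 50th percentile and no detection filter moved none of the 54 member differences by over 0.1 log2 units. With the floor at the 75th percentile (178.5), or with an offset of 50, the count of members 2-fold different in P2 against P1 was 0 in place of 1, since CDKN1C gave log2 differences of -0.88 and -0.87; both settings compress low values by construction. The mean of all detected probes moved 14 of 54 differences and the second brightest probe, an alternative chosen after seeing the data, 13 of 54 with 1 more passing 2-fold; these were of MYC, MYCN, CCNE1 and CDKN1B. With the second brightest probe, 1 member was 2-fold different in P3 against P1, MYC. At 1.5-fold in place of 2-fold, the count was 1 in P3 against P1, P4 against P1 and P4 against P3, and 2 in P3 against P2 and P4 against P2. Of 126 recomputed list medians, 124 stayed within 0.1; the MYC network median in P3 against P1 was 0.10 at the 75th percentile and 0.12 with no detection filter.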
